A study of Mus musculus with 8 samples.

Results

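The glucagon receptor gene Gcgr and 8 adrenergic receptor genes, Adra1a, Adra1b, Adra1d, Adra2a, Adra2b, Adra2c, Adrb1 and Adrb3, were examined for the histone mark H3K27-me3 in fasted mouse liver. They were taken by gene name and are 9 of 21851 protein-coding genes of the GENCODE annotation used. For each receptor, every H3K27-me3 region was collected that lay within 50 kb of a start site or over the gene body. The rule uses names and positions and no measured value, although the genes were proposed with earlier results of these data known. Gcgr and Adra1b were counted as liver-expressed from textbook knowledge, and the other 7 receptors were set against them.

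Liver ChIP-seq had been performed on male JMJD3-floxed C57BL/6 mice, which received AAV-TBG-Cre or AAV-GFP by injection at the age of 8 weeks and were fasted for 16 h when 12 weeks had passed. Mice of both groups carried the floxed allele and both groups were fasted, so the groups differed in the virus. The TBG promoter restricts Cre to hepatocytes, so other cells of the liver keep JMJD3, the demethylase that removes H3K27-me3. Each virus group had 2 H3K27-me3 libraries and 2 input libraries, 8 in all, and the authors made 1 list of enriched regions per group, from the peaks that overlapped across its replicates. The lists therefore give no value per mouse or library, and a difference between AAV-Cre and AAV-GFP cannot be judged by the spread of replicates. As whole liver was used, hepatocytes cannot be told apart from other liver cells at any of the genes. The lists also give no reading of JMJD3 itself, so the downregulation could not be checked from them.

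Glucagon acts on hepatocytes through the glucagon receptor, a class B receptor that couples to the stimulatory G protein, raises cyclic AMP and drives glycogen breakdown and gluconeogenesis. Adrenaline and noradrenaline act through the adrenergic receptors, which are class A receptors. Alpha-1 receptors couple to Gq and release calcium, alpha-2 receptors couple to the inhibitory G protein and lower cyclic AMP, and beta receptors raise it. In rodent hepatocytes alpha-1 receptors carry much of the response to catecholamines, and most other adrenergic subtypes are better known from nerve endings, vessels, heart and fat. H3K27-me3 is deposited by Polycomb repressive complexes and typically lies over CpG-rich start sites of genes that are silent in a tissue.

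The start-site sequences of 5 receptors are shown because they set receptors without a called region beside receptors with one. They are RefSeq sequences of GRCm38.p6, read 5′ to 3′ from 250 bases before to 50 bases after a start, with every CG in capitals. Gcgr lies at chr11:120530477-120530776 (+), Adra1b at chr11:43836440-43836739 (−), Adra2a at chr19:54045009-54045308 (+), Adra2c at chr5:35278316-35278615 (+) and Adrb1 at chr19:56721867-56722166 (+). Adra1b has an upstream promoter as well, at chr11:43901188-43901487, and Adra2b lies at chr2:127362929-127363228. Adra1a, Adra1d and Adrb3 had no entry.
Gcgr: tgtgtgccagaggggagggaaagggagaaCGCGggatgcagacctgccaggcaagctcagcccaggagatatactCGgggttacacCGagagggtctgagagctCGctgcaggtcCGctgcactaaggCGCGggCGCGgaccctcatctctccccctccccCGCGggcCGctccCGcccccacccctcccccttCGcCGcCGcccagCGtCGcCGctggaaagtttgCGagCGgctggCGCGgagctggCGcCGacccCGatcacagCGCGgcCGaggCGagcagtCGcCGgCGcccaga
Adra1b: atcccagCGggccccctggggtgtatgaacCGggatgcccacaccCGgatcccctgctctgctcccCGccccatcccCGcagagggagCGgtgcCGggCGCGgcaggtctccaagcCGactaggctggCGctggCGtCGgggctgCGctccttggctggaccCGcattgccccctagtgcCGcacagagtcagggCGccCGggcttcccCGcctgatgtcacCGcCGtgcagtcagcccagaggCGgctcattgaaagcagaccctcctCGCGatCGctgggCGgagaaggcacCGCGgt
Adra2a: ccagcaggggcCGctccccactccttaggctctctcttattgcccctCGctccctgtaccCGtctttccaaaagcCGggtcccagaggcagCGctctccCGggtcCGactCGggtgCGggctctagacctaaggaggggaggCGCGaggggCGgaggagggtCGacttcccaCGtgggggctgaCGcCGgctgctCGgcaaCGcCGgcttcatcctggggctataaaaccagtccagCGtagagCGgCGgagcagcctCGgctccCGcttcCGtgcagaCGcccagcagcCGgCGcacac
Adra2c: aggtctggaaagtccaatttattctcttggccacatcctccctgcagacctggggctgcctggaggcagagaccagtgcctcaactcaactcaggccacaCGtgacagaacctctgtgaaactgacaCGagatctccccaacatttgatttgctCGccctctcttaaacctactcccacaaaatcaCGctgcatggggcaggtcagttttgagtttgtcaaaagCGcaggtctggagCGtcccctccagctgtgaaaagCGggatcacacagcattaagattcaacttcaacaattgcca
Adrb1: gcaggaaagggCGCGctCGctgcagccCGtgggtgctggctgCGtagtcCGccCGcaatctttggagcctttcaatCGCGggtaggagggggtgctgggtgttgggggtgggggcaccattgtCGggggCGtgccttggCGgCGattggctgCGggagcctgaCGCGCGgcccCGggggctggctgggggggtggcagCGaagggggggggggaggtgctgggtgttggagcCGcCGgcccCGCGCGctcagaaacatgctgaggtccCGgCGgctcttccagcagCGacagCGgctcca

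The Gcgr stretch held 34 CG dinucleotides, a number that 7.73% of 32851 promoters reach. Adra1b, Adra2a and Adrb1 held 28 each (14.2% of promoters have as many or more), Adra2b 29 (12.9%), Adra2c 7 (52.1%) and the upstream promoter of Adra1b 3 (76.7%). The median promoter held 7, and 94.6% held at least 1. All 300 bases lay inside an H3K27-me3 region of both lists for Adra2a, Adra2c and Adrb1. For Adra2b all 300 bases lay inside an AAV-Cre region and 116 inside an AAV-GFP region. For Gcgr and for both Adra1b promoters 0 bases lay inside a region of either list. The stretches of Gcgr and Adra1b with 34 and 28 CG were thus without a region, whereas that of Adra2c, with the median number, was covered. This contrast belongs to these 300 bases. Within 1 kb of its GENCODE start Adra2c had 96 CG, as many as Adra1b at its downstream start, and Gcgr had 90.

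The AAV-Cre list held 59267 regions over 73.7 Mb and the AAV-GFP list 34586 regions over 14.9 Mb, a ratio of 4.93 in bases. The shortest region measured 300 bp in AAV-Cre and 120 bp in AAV-GFP, and 88.6% and 46.8% of the regions reached a q-value of 0.05. Number, width and q-value of regions are therefore given for each list as properties of its peak call, and fold enrichments over input are compared only within a list. The part of these differences of the lists in any value below was not tested.

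H3K27-me3 regions were found at 6 of the 9 receptors, and these were the same 6 in both lists, namely Adra1d, Adra2a, Adra2b, Adra2c, Adrb1 and Adrb3. Gcgr, Adra1a and Adra1b had 0 regions in both lists. The count of 6 held within 50 kb or over the body, where 62.2% of all genes had a region in AAV-Cre and 47.2% in AAV-GFP. It was also 6 within 15 kb of a start site, against 41.6% and 28% of all genes, and within 1 kb, against 24% and 16.6%. Regions lay over the gene body of these 6 as well, against 28.9% and 20.7% of all genes. Both lists had a region within 1 kb at 6 of 9 receptors and at 16.3% of all genes. Receptors with a region in neither list were 3 of 9, and over all genes this share was 35.7%. No receptor had an AAV-Cre region within 15 kb without an AAV-GFP region, a state that 14.8% of all genes had.

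**Figure D1:**
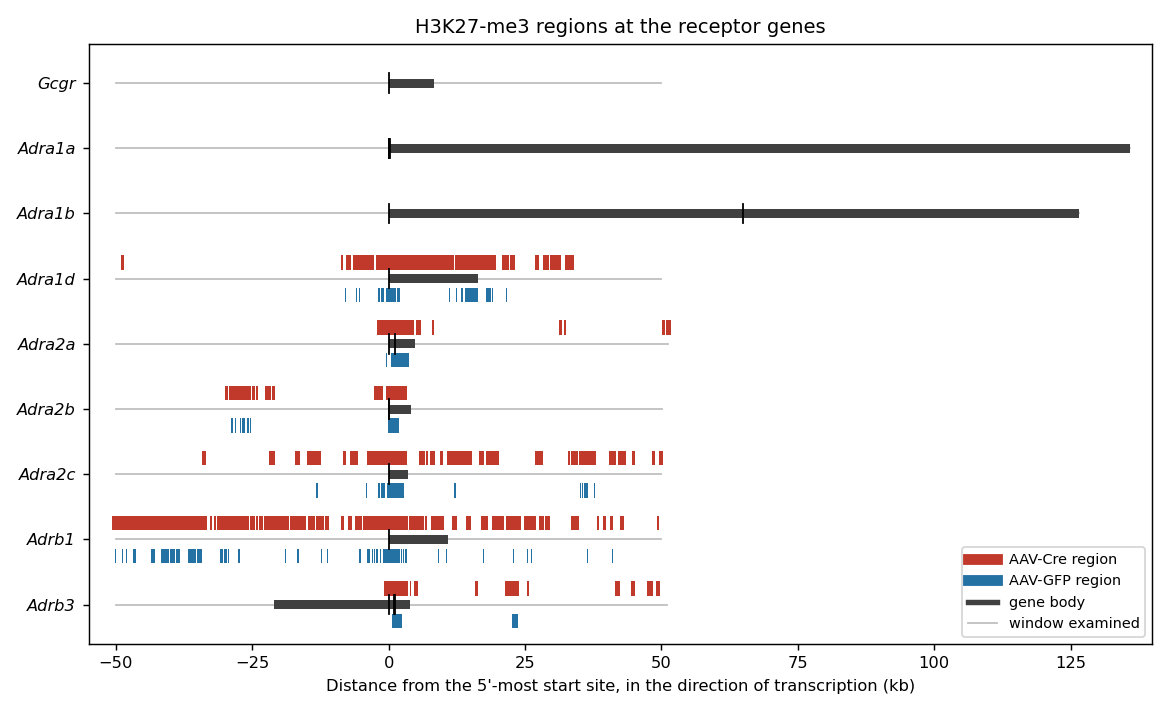
H3K27-me3 regions of AAV-Cre (red, above each gene) and AAV-GFP (blue, below) against the distance from the 5′-most start site of protein-coding transcripts in kb, with gene bodies in dark grey, start sites as black ticks and the examined window as a thin line. Regions of both lists lie over a start site of 6 genes, and Gcgr, Adra1a and Adra1b carry none. At Adra2a and Adrb3 the AAV-GFP regions cover only start sites downstream of the 5′-most one. The annotated body of Adrb3 extends upstream of its coding transcripts.

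Among the liver-expressed receptors, 0 of 2 had a region in either list, and among the others 6 of 7. With Adra1a counted as liver-expressed, the numbers were 0 of 3 and 6 of 6. The windows of the 2 liver-expressed genes spanned 277 kb with 0 bases covered. Those of the other 7 spanned 788 kb, of which regions covered 22.2% in AAV-Cre and 5.39% in AAV-GFP. With 2 genes against 7 chosen by prior knowledge, these are counts and no test was made.

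Gcgr (chr11:120530699-120538986, plus strand, 13 coding exons) encodes the glucagon receptor. The region nearest to its start lay 110293 bp from that start in the AAV-Cre list and 111289 bp from it in the AAV-GFP list, which is 102006 bp and 103002 bp beyond the 3′ end of the gene. That AAV-Cre region, at chr11:120640992-120643461 with a q-value of 1.79e-18, was closest to the start of Pycr1, a gene of proline synthesis. Of all genes, 76.7% had a nearer region in AAV-Cre and 64.5% in AAV-GFP. Starts of 5 other protein-coding genes, Mrpl12, Slc25a10, Mcrip1, Ppp1r27 and P4hb, also lay in the window of Gcgr, and this whole stretch was without regions.

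Adra1b encodes the alpha-1B receptor, the main alpha-1 subtype of rodent hepatocytes. The region nearest to a start of Adra1b lay 68186 bp from it in AAV-Cre and 82955 bp from it in AAV-GFP, and 67.9% and 57.9% of genes had a region nearer to a start. Measured from the 3′ end of this long gene, the same regions were 6460 bp and 21229 bp away. In a window of 100 kb, added after the data had been seen, Adra1b would count as the 7th marked receptor in both lists. In both lists that region was closest to the start of another gene, Ttc1. Adra1a encodes the alpha-1A receptor of smooth muscle and heart. The regions nearest to a start of Adra1a lay 132756 bp from it in AAV-Cre and 210116 bp from it in AAV-GFP, and 79.7% and 79.3% of genes had a region nearer to a start. Beyond the 3′ end of Adra1a, the first region came after 20188 bp in AAV-Cre and 95462 bp in AAV-GFP. At all 3 unmarked receptors the nearest region was thus beyond the window in both lists, and nearer in AAV-Cre than in AAV-GFP. The AAV-Cre list held 59267 regions and the AAV-GFP list 34586, and the share of all genes with a nearer AAV-Cre region was not computed. At Gcgr the nearest AAV-GFP region lay inside the nearest AAV-Cre region.

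Adra1d encodes the alpha-1D receptor, known from vascular smooth muscle. Regions covered 35.1% of its window in AAV-Cre and 8.39% in AAV-GFP, in 12 and 15 regions, and 98% and 96.7% of genes had a lower value. Its start lay in an AAV-Cre region of 14230 bp (chr2:131550390-131564619, fold 11.04, q 2.15e-52), which ran from upstream of the start through most of the intron. A second AAV-Cre region of 7534 bp (chr2:131542687-131550220) covered the 3′ part of the gene. With a fold of 16.49 and a q-value of 2.46e-86 it was the strongest at any of the receptors, and 0.0456% of the AAV-Cre list was stronger. The 15 AAV-GFP regions at Adra1d lay in 2 groups around both ends of the gene, with 1627 bp over the start (fold 5.20, q 6.3e-16) and 2283 bp over the second coding exon (fold 5.66, q 1.62e-23). Most of the intron between them carried no AAV-GFP region, whereas AAV-Cre regions covered it.

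Alpha-2 receptors act largely on nerve endings, where they limit transmitter release, and Adra2a also restrains insulin secretion. The Adra2a start lay in an AAV-Cre region of 6631 bp (chr19:54042087-54048717, fold 7.62, q 4.3e-54), which spanned nearly the whole gene. In AAV-GFP the gene carried regions of 1163 bp (fold 5.04, q 5.34e-15) and 2063 bp (fold 4.61, q 1.8e-19), parted by a short gap. Regions covered 9.89% of the Adra2a window in AAV-Cre and 3.43% in AAV-GFP, in 7 and 3 regions. This was the lowest coverage of the 6 marked receptors in AAV-Cre.

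Adra2b encodes the alpha-2B receptor, which constricts vessels. Its start lay in an AAV-Cre region of 3935 bp (chr2:127362680-127366614, fold 9.67, q 1.82e-38) and an AAV-GFP region of 1936 bp (chr2:127363113-127365048, fold 2.59, q 0.000307). Regions covered 13% and 3.84% of the window. Of its 8 AAV-Cre regions, 6 were closer to the starts of the neighbours Dusp2 and Astl than to that of Adra2b, as were 6 of 7 AAV-GFP regions. Adra2b was the receptor whose window held the largest share of regions nearer to other genes. At the start itself it had 1 region in each list.

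Adra2c encodes the alpha-2C receptor of brain and adrenal medulla. It had 23 AAV-Cre regions over 35.9% of its window and 10 AAV-GFP regions over 6.39%, and 98.2% and 95% of genes had a lower value. The start lay in an AAV-Cre region of 7309 bp (chr5:35274372-35281680, fold 8.35, q 3.83e-37) and an AAV-GFP region of 3182 bp (chr5:35278017-35281198, fold 5.85, q 2.73e-20). No other protein-coding start lay in the window of Adra2c, and all of its regions were closest to its own start. The same held for Adra1d and Adra2a.

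Adrb1 encodes the beta-1 receptor, which raises heart rate and force and renin release. It had the highest coverage of the 9 receptors in both lists, with 34 AAV-Cre regions over 68.7% of the window and 37 AAV-GFP regions over 17.2%. Of all genes, 99.8% and 99.1% had a lower value. Its start lay in an AAV-Cre region of 8181 bp (chr19:56717535-56725715, fold 4.54, q 3.31e-23) and an AAV-GFP region of 3040 bp (chr19:56721236-56724275, fold 3.41, q 4.08e-09). The widest region at any receptor, with 17347 bp (chr19:56671563-56688909), lay 33290 bp upstream of the Adrb1 start in AAV-Cre. It had a fold of 8.48, above that of the region over the start. Adrb1 thus combined the largest covered share with the lowest fold over a start among the 6 genes in AAV-Cre.

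Adrb3 encodes the beta-3 receptor, which drives lipolysis in fat cells. Its start sites lay in an AAV-Cre region of 4511 bp (chr8:27226011-27230521, fold 7.17, q 7.46e-23). An AAV-GFP region of 1887 bp (chr8:27227169-27229055, fold 3.47, q 1.26e-06) covered the start sites downstream of the most upstream one. Regions covered 12.2% of the window in AAV-Cre and 3.14% in AAV-GFP, in 10 and 3 regions. Of the 10 AAV-Cre regions, 3 were closest to Adrb3 itself. A region 20151 bp downstream (chr8:27205777-27208343, q 3.41e-29), shared by both lists, lay closer to the start of Got1l1, at 3230 bp. Over all 9 windows, 80 of 94 AAV-Cre and 68 of 75 AAV-GFP regions were closest to the start of the receptor itself.

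**Figure D2:**
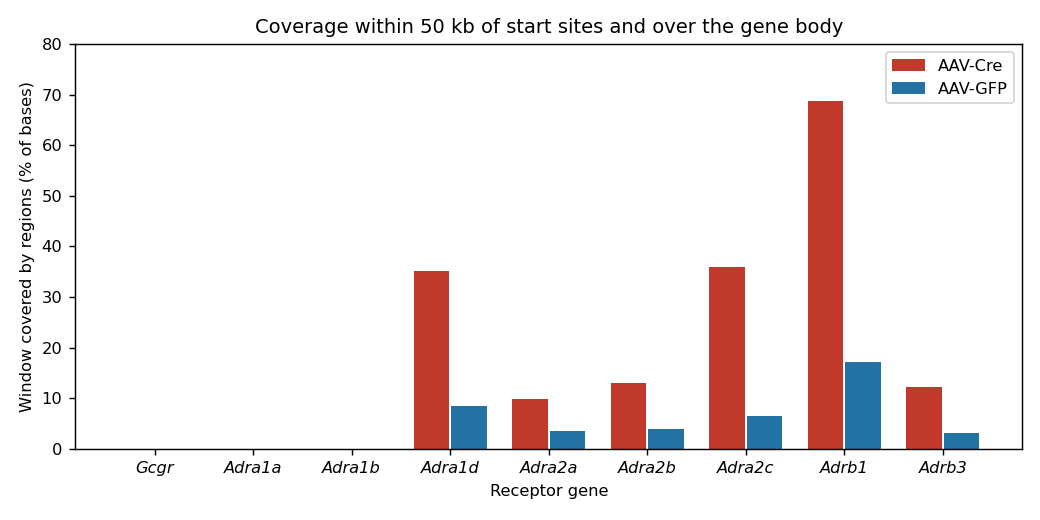
Percent of the bases within 50 kb of start sites and over the gene body that lie in H3K27-me3 regions of AAV-Cre (red bars) and AAV-GFP (blue bars), with 1 list per group and so no error bars. Adrb1 has the tallest bars at 68.7% and 17.2%, and Gcgr, Adra1a and Adra1b are at 0.

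The coding sequence of all 6 marked receptors lay completely inside AAV-Cre regions. In AAV-GFP the share was 100% for Adra2a, Adra2b and Adrb1, 95.6% for Adra2c, 94.1% for Adra1d and 93.1% for Adrb3. Adra2a, Adra2b, Adra2c and Adrb1 have 1 coding exon each, and Adra1d and Adrb3 have 2. Of the 3 unmarked genes, Adra1b has 2, Adra1a 3 and Gcgr 13. The 4 receptors with a single coding exon were all marked, as were 2 of the 3 with 2 coding exons. Of all genes, with any number of coding exons, 28.9% had an AAV-Cre region over the body and 20.7% an AAV-GFP region. These shares count any overlap with the body, and the share of genes with the whole coding sequence in regions was not computed. A link between exon number and the mark was not tested.

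Covered bases were more numerous in AAV-Cre than in AAV-GFP at each of the 6 marked receptors. The ratio was 2.88 at Adra2a, 3.38 at Adra2b, 3.88 at Adrb3, 3.99 at Adrb1, 4.18 at Adra1d and 5.62 at Adra2c, beside 4.93 for the lists as a whole. These ratios depend on the peak call, and at a q-value of 0.01 or lower the AAV-GFP coverage of the Adra2c window was 4.11% in place of 6.39%. Within 15 kb of the start, regions covered 74.1% in AAV-Cre and 19.3% in AAV-GFP at Adra1d, 71.3% and 21.6% at Adrb1, and 63.2% and 16.9% at Adra2c. Adra2a had 25.9% and 11.2%, Adrb3 19.1% and 6.51%, and Adra2b 19% and 6.44%. The 6 genes fell in 2 sets in AAV-Cre, with Adra1d, Adrb1 and Adra2c above 60% and the other 3 below 30%. In AAV-GFP the same 3 genes had the highest values.

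Overlap between the lists was counted from 1 bp upwards. Of the 75 AAV-GFP regions in the windows, 72 (96%) overlapped an AAV-Cre region, against 86.4% of all AAV-GFP regions. Of the 94 AAV-Cre regions, 26 (27.7%) overlapped an AAV-GFP region, which is near the 24.2% of all AAV-Cre regions. When at least 0.5 of a region had to be covered, 4 of the 94 were shared. The share over all AAV-Cre regions at this setting was not computed, so the 4 cannot be set against it. At each of the 6 marked receptors between 97.7% and 100% of the AAV-GFP bases lay inside AAV-Cre regions. This share of bases was not computed for the whole AAV-GFP list, so it cannot be called particular to the receptors. The AAV-Cre list as a whole covered 4.93 times the bases of the AAV-GFP list. The 26 shared AAV-Cre regions had a median width of 3467 bp and a median fold of 4.62, and 6 of them lay over a start. The 68 AAV-Cre regions without an AAV-GFP partner had a median of 754 bp in width (303 to 2757 bp), a median fold of 2.82 and a median distance of 24372 bp from the start. That width is close to the median of 753 bp over all AAV-Cre regions, and the nearest of the 68 lay 976 bp from a start, that of Adra2b. Since each of the 6 starts lay in a shared region, none of the 68 could lie over 1 of them. Of these 68 regions, 63 had a q-value of 0.05 or lower.

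**Figure D3:**
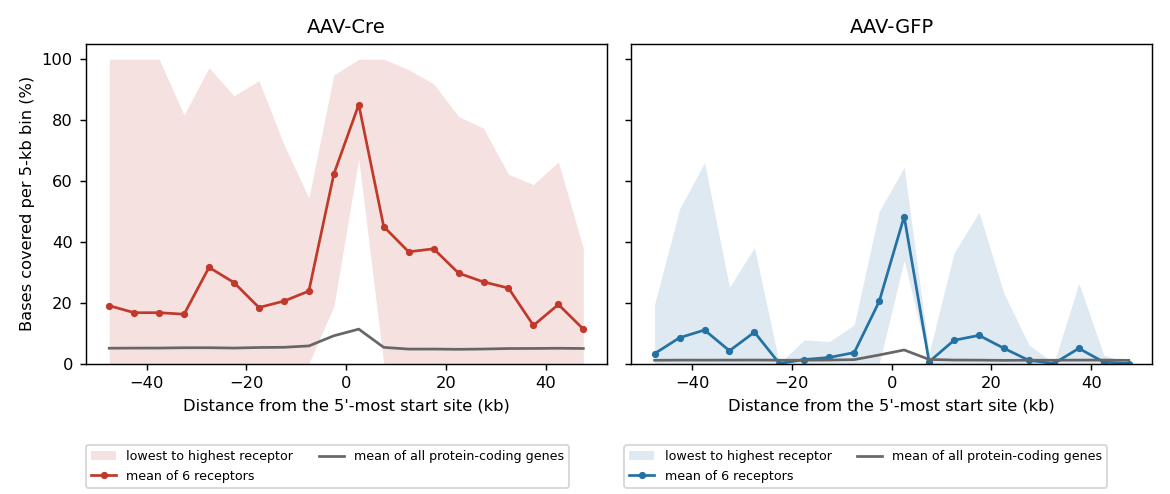
Percent of bases in H3K27-me3 regions in bins of 5 kb against the distance from the 5′-most start site in kb, for AAV-Cre (left) and AAV-GFP (right). Dots are the mean of the 6 marked receptors, shading runs from the lowest to the highest receptor, and the grey line is the mean of all protein-coding genes. The mean is highest just downstream of the start in both panels, at 85.1% and 48.3%.

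Coverage was highest at the start in both lists. In the first 5 kb downstream of the start, regions covered 85.1% on average over the 6 marked receptors in AAV-Cre (67.2% to 100%) and 48.3% in AAV-GFP (33.9% to 64.5%). In the 5 kb upstream, the means were 62.2% and 20.4%. From 5 to 10 kb downstream AAV-Cre had a mean of 45% (0% to 100%) and AAV-GFP one of 0.57% (0% to 3.42%). Over all genes the means of this bin were 5.31% and 1.33%. In AAV-GFP coverage was thus near 0 just beyond the first 5 kb, whereas AAV-Cre regions went on at some but not all of the 6 genes. From 15 to 20 kb downstream the AAV-Cre mean was 37.7% and the AAV-GFP mean 9.25%, with a highest AAV-GFP value of 49.7%, around the 3′ end of Adra1d. Over all genes the means of the first 5 kb were 11.3% and 4.45%. As the 6 genes were taken for having a region, the distance from the values over all genes is a description.

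When regions around a start were joined across gaps of up to 5 kb, they formed a run of 42.7 kb in AAV-Cre and 10.1 kb in AAV-GFP at Adra1d, and of 42.1 kb and 6.95 kb at Adra2c. Adrb1 had the longest, a run of 54 AAV-Cre regions over 158 kb, of which 115 kb lay in regions, beside 8.82 kb in AAV-GFP. The runs at Adra2a (10.4 kb and 4.29 kb), Adrb3 (6.32 kb and 2.15 kb) and Adra2b (6.15 kb and 1.94 kb) were short. None of these runs held the start of another protein-coding gene.

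The number of CpG dinucleotides within 1 kb of the start was counted because Polycomb marks are known to favour CpG-rich starts. Where a receptor has several start sites, the most downstream one was used. It was 74 at Adra1a, 90 at Gcgr and 96 at Adra1b, which carried no region. Among marked receptors it was 88 at Adrb3, 96 at Adra2c, 111 at Adra2b, 128 at Adra2a, 155 at Adra1d and 181 at Adrb1. The sets overlapped, since Adrb3 had fewer CpG than Gcgr and Adra2c as many as Adra1b at its downstream start. Gcgr, Adra1b, Adra2b, Adra2c and Adrb3 all fell in the class of genes with 81 to 112 CpG. In that class 26.4% of 4364 genes had an AAV-Cre region and 21.8% an AAV-GFP region within 1 kb of the start. In the class with the fewest CpG (0 to 20), the shares were 5.01% and 1.71%. They were 29.1% and 11.9% with 21 to 49 CpG, 29.7% and 21.8% with 50 to 80, and 30.4% and 26.2% with 113 to 323. Above 20 CpG the AAV-Cre share thus did not rise steadily.

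**Figure D4:**
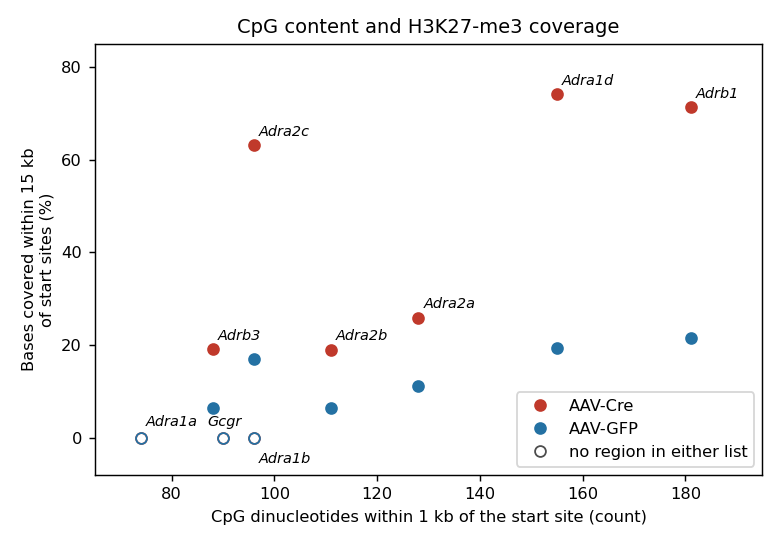
Percent of bases within 15 kb of start sites in H3K27-me3 regions against the number of CpG dinucleotides within 1 kb of a start site. Where a receptor has several start sites, CpG are counted at the most downstream one. AAV-Cre is in red and AAV-GFP in blue, with open circles for receptors with no region in either list. Adrb3, Gcgr, Adra2c and Adra1b lie between 88 and 96 CpG, and 2 of these 4 are without a region.

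Other genes of the pathway were taken from lists of receptors, ligand genes, signal transducers and targets, and called marked if they had a region less than 15 kb from a start. Of all genes, 41.6% were marked in AAV-Cre and 28% in AAV-GFP, and 14.8% in AAV-Cre only. Of 14 other class B receptors, the family of Gcgr, 14 were marked in AAV-Cre and 12 in AAV-GFP. Both counts included the incretin receptor genes Gipr (57.9% of bases within 15 kb in AAV-Cre, 28.7% in AAV-GFP) and Glp1r (37.8% and 6.29%) and the parathyroid hormone receptor gene Pth1r (46.5% and 12.4%). Glp2r and Ghrhr were marked in AAV-Cre only. Gcgr itself had 0 regions in this window. Of 24 other aminergic receptors, which bind dopamine, serotonin, acetylcholine or histamine, 22 were marked in AAV-Cre and 15 in AAV-GFP. Htr6 (45.7% and 9.08%) and Hrh3 (35.5% and 15.9%) had the highest AAV-Cre coverage of these. The 7 marked in AAV-Cre only were Drd3, Drd5, Htr1a, Htr1f, Htr5a, Chrm5 and Hrh2, whereas no adrenergic receptor was marked in 1 list only.

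On the side of the ligands, 5 of 11 genes (45.5%) were marked in AAV-Cre and 4 (36.4%) in AAV-GFP. These shares are near the 41.6% and 28% of all genes. The marked ligand genes included Slc6a2, the noradrenaline transporter (39.5% and 2.47%), Pnmt, which makes adrenaline (23.1% and 9.76%), and Th, the first enzyme of catecholamine synthesis (12.7% and 0.685%). Dbh was marked in AAV-Cre only, a state that 14.8% of all genes had. Gcg, which encodes glucagon, had its nearest region at 17705 bp in AAV-Cre and 24239 bp in AAV-GFP and was not marked. Of 37 signal transducers, 23 were marked in AAV-Cre and 19 in AAV-GFP. Cyclase genes Adcy5 (64.7% and 16.4%) and Adcy4 (61.6% and 19.2%) had the highest AAV-Cre coverage here, and Gnai3, Prkar1a, Crtc1 and Itpr2 were marked in AAV-Cre only. Of 14 genes of signal termination, 9 were marked in AAV-Cre and 5 in AAV-GFP, and Arrb1, Arrb2, Grk5 and Pde4b were marked in AAV-Cre only.

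No region was called near the starts of the metabolic targets of glucagon and adrenaline in liver. None of 17, among them Pygl of glycogen breakdown, Pck1 and G6pc of gluconeogenesis and Ppargc1a, their coactivator, had a region within 15 kb in either list. The receptors of the same signals in hepatocytes, Gcgr and Adra1b, likewise had 0 regions in that window. Cyp2e1 was the only marked one of 9 hepatocyte genes, in both lists. All 10 developmental regulators, genes that carry the mark in most adult tissues, were marked in both lists. The shares over all genes in the same window were 41.6% and 28%.

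**Figure D5:**
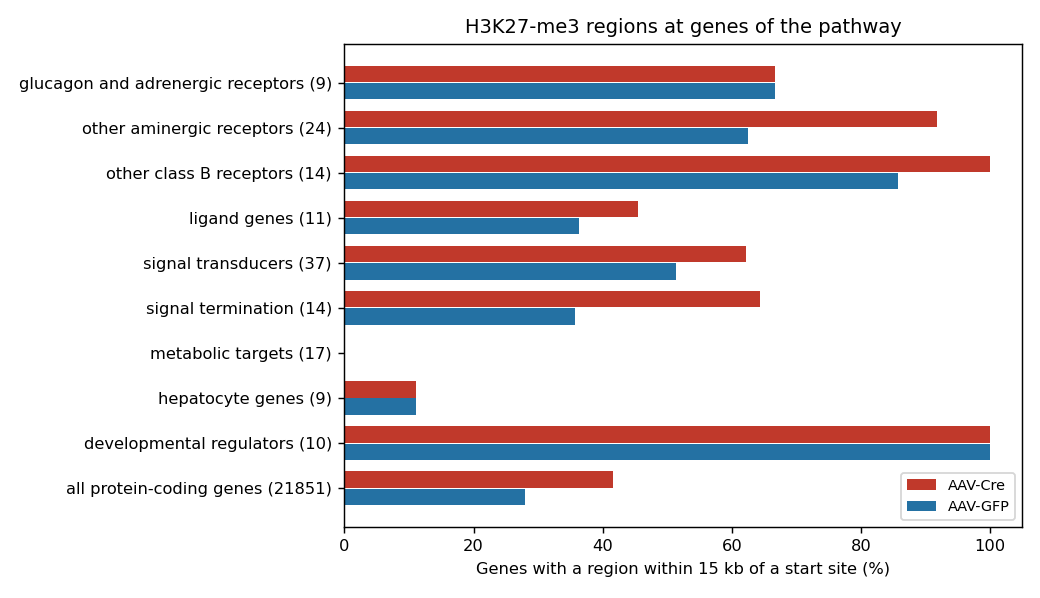
Percent of genes with an H3K27-me3 region within 15 kb of a start site in AAV-Cre (red bars) and AAV-GFP (blue bars), for the 9 receptors, lists of related genes and all protein-coding genes, with the number of genes in brackets. Metabolic targets are at 0 in both lists, and the receptors are at 66.7% in both.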

How the data were processed

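H3K27-me3 ChIP-seq had been performed by the authors on livers of the JMJD3-floxed mice, with 2 H3K27-me3 libraries and 2 inputs for each virus, and groups were taken from the labels. The authors used the AQUAS pipeline with bwa (BWA 0.7.13, SAMtools 1.2 and Picard 1.126 per the labels) on mm10, called peaks with MACS and deposited 1 list of regions per group, made from both replicates. For each region the deposited lists give a fold enrichment over input (a ratio), a −log10 p-value and a −log10 q-value. The files hold no read counts, so the depth is unknown. MACS narrow peaks split broad domains into several regions.

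Regions were joined to genes of GENCODE M21 (GRCm38, the assembly of mm10), with start sites of basic protein-coding transcripts. Windows of 50, 15 and 1 kb were used, and an overlap of 1 bp counted. Promoter sequences were from RefSeq (6 receptors matched, 3 without an entry). A hepatocyte gene listed as Tf was not found by that name, which left 9. The receptors and lists were chosen with earlier results of these data known. All 9 receptors are named; of each list, genes were taken from the 5 with the highest AAV-Cre coverage within 15 kb and those marked in 1 list only, and Gcg and 4 metabolic targets were added after their values were seen. No test between groups was made. Alternatives were q-values of 0.05 and 0.01, the 34586 top peaks of each list, merging within 1 kb, an overlap of 0.5, other windows and start sites of all transcripts. Functions were checked against a direct search. Python 3.11, numpy 2.4.6 and matplotlib 3.10.9 were used.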

Additional observations from a re-analysis of the deposited data

How the results depend on the processing

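No paired analysis was possible because each deposited list combines both replicates, and leaving out a replicate could not be run for the same reason. Of 98 counts recomputed under the alternatives, 91 were within 1.5 times the reported count. Part of these could not move, since the 34586 top peaks are the whole AAV-GFP list. The receptors marked within 15 kb were also counted again in the split by liver expression. The 91 of 98 is therefore no measure of robustness. When at least 0.5 of a region had to lie inside the window, 1 receptor instead of 6 had an AAV-Cre region within 1 kb of a start, because most of these regions are wider than that window. Of the 94 AAV-Cre regions in the receptor windows, 61 were left with equal numbers of top peaks in both lists and 41 after merging within 1 kb. Of the 75 AAV-GFP regions, 47 had a q-value of 0.05 or lower and 33 of 0.01 or lower, and 37 were left after merging within 1 kb. When at least 0.5 of a region had to be covered by the other list, 4 instead of 26 AAV-Cre regions were shared, with no share over all regions computed. Of 72 coverage values recomputed, 39 moved, 27 to lower and 12 to higher values. The shift was over 1.5 times only for Adra2c in AAV-GFP at a q-value of 0.01 or lower (4.11% instead of 6.39%). AAV-GFP coverage could not move with equal numbers of top peaks. The lists hold no depth, so a gene without a region may carry the mark below the level at which peaks were called.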
